A study of Mus musculus with 4 samples.

Results

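Group 2 innate lymphoid cells (ILC2) of mouse skin were described from 388 cells, 371 of them from control skins and 17 from skin tumors, among 13124 cells kept for analysis. ILC2 are lymphocytes that do not depend on a rearranged antigen receptor. They live in barrier tissues, depend on the transcription factors GATA3 and RORα, and respond to alarmins, the cytokines that damaged or irritated epithelium releases, such as IL-33, TSLP, IL-25 and IL-18. They are known as a source of IL-5 and IL-13, which act on eosinophils, epithelium and fibroblasts, and of amphiregulin, a growth factor of tissue repair.

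CD45+/DAPI- cells, that is living leukocytes, were sorted after collagenase IV digestion, and 1 droplet library of 3′ RNA ends was made from each of 4 tissues. The 2 control skins came from uninoculated C57/BL6 mice. The 2 skin tumors grew for 2 weeks in the flanks of C57/BL6 mice, female or male and 8 to 10 weeks old, after injection of the 2323 cell line, which was set up from a single tumor graft. The libraries held 3499 and 3862 barcodes from control skins and 5176 and 2258 from skin tumors, with 50932896, 52784293, 73904272 and 34893543 unique molecular identifiers (UMIs, each standing for 1 counted RNA molecule). With n = 2 libraries in a group, a p-value rests on the spread in these libraries and no more. Where the library was a block, within the control skins, it measures how a difference between groups of cells varied between the 2 skins. The estimate of that spread borrows from all genes tested. In all that follows, a pair of values is given in the order of control skin 1 and control skin 2, and a level is in CPM, UMIs of the gene per 1000000 UMIs of the cells summed.

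A cell was taken as an ILC2 by its own UMIs. It had at least 1 UMI of Gata3, at least 3 of Rora and at least 1 over Il5, Il13, Il1rl1 and Hlf. It had at most 1 UMI over the T cell receptor genes Cd3e, Cd3g, Cd3d and Trac, 0 of Foxp3, at most 3 of Mcpt4, at most 1 of Csf1r and at most 2 over Top2a and Mki67, in a barcode with at least 1000 UMIs and at most 15% mitochondrial UMIs. The control skins gave 203 and 168 ILC2, and the tumors gave 8 and 9. The median ILC2 of the control skins held 8249 and 7906 UMIs from 2434 and 2457.5 genes, and that of the tumors 3327 and 2986 UMIs from 1425 and 1430 genes. These 15 genes chose the cells, so their levels below are a description with no test. Between libraries, 1 to 7 barcodes were shared, and 0 among ILC2.

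IL-5 and IL-13 are the cytokines that ILC2 are named for, and VIPR2 is a receptor for vasoactive intestinal peptide, a neuropeptide. Their promoters are shown because the results below turn on these genes, as the RefSeq sequence from 250 bases before to 50 after the gene's start (GRCm38.p6, 300 bases, written in the gene's direction). The windows are chr11:53720544-53720843 on the forward strand for Il5, chr11:53634653-53634952 on the reverse strand for Il13 and chr12:116077476-116077775 on the forward strand for Vipr2. Capitals mark the GATA letters searched for (AGATAA or TGATAA, either strand), which are not every form of the GATA motif.
Il5: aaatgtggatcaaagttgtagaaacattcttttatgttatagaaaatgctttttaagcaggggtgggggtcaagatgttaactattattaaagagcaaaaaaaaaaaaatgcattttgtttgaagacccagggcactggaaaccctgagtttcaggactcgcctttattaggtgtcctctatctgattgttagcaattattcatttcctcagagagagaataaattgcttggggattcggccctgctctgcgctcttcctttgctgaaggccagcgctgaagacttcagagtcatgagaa
Il13: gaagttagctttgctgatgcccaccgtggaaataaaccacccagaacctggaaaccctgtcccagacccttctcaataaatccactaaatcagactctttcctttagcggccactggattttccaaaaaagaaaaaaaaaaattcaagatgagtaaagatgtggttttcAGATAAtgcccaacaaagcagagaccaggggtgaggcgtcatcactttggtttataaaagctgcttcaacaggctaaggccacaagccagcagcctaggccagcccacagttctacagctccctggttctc
Vipr2: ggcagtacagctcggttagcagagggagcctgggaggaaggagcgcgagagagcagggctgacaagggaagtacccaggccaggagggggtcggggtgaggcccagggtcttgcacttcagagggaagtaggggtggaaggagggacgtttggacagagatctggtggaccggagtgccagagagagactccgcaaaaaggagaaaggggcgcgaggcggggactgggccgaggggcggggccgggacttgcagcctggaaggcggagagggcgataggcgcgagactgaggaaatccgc
The GATA letters were found once, as AGATAA at position -81 from the start of Il13. They were in 18.6% of the 32851 promoters of the same length. Other forms of the motif, such as AGATAG, were not searched, so this share does not cover them. The printed Il5 window holds ctatct, which is AGATAG on the other strand. The letters AGGTCA, the core of the ROR motif, were in none of the 3 windows on either strand and in 16.3% of all promoters. The windows of Hlf and Il17rb, also read but not printed, held neither run of letters. A match is a run of letters and not a binding site.

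Before the comparisons, 5 of the 371 control ILC2 stood apart. They were 2 cells of control skin 1 and 3 of control skin 2, with 20 to 1531 UMIs of Krt14, Krt5, Krt15 and Krt10, the keratins of the epidermis, where the other 383 members had 0 to 2. They held 18644 to 63225 UMIs each and 193536 in sum, against 2982377 in the other 366 control members. All 5 passed the rule through Hlf, and none had a UMI of Il5, Il13, Il1rl1 or Kit. Ptprc, which encodes CD45, was found in 2 of the 5, Il7r in 1 and Icos in 1, while Epcam and Krt1, an adhesion gene and a keratin of epithelium, were found in 4. The summed level of the 4 keratins was 207 and 1372 CPM with these cells and 8.45 and 7.54 CPM without them. They stay in the values below unless stated. Counts of genes are also given without them (201 and 165 ILC2 remained), with cells of every type that had at least 10 keratin UMIs left out.

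**Figure D1:**
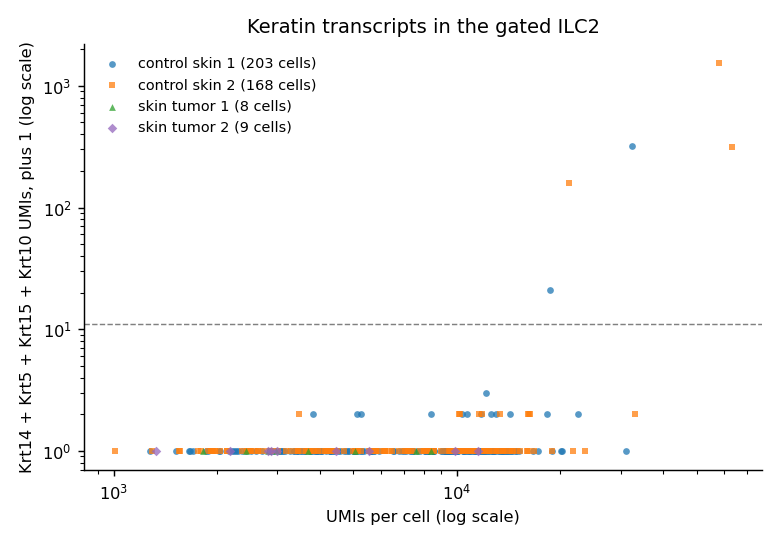
UMIs per cell (log scale) against the UMIs of Krt14, Krt5, Krt15 and Krt10 plus 1 (log scale) in each of the 388 gated ILC2, by library. The 5 cells above the dashed line (10 keratin UMIs) have 20 or more, and the other 383 have 2 or fewer.

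Within the rule, nearly every control ILC2 carried Hlf, a transcription factor of the PAR bZIP family, found in 94.6 and 97.6% of them. Il5 was found in 42.9 and 47.6%, Il13 in 41.4 and 32.7%, and Il1rl1, the receptor for IL-33, in 10.3 and 14.3%. Hlf was the only one of the 4 genes in 71 and 59 cells, and all 4 were found in 7 and 6 cells. The median cell held 41 and 41 UMIs of Rora and 4 and 6 of Gata3. No UMI of the T cell receptor genes of the rule was found in 143 and 137 cells.

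The level of Gata3 (ENSMUSG00000015619, chr2:9857078-9890034) was 784 and 884 CPM in ILC2, and in the other lymphocyte types it lay between 78.0 CPM in dendritic epidermal T cells (DETC) of control skin 2 and 279 CPM in regulatory T cells (Tregs) of control skin 2. Rora (ENSMUSG00000032238, chr9:68653786-69388246) was at 5097 and 4963 CPM in ILC2 and next at 2112 and 2213 CPM in Tregs. Hlf (ENSMUSG00000003949, chr11:90336536-90390895) was at 1689.8 and 1601 CPM in ILC2 and at 129 and 185 CPM in dermal γδ T cells (dermal γδT). Il5 (ENSMUSG00000036117, chr11:53720794-53725106) was at 324 and 271 CPM in ILC2 against 17.9 and 37.9 CPM in dermal γδT, and Il13 (ENSMUSG00000020383, chr11:53631324-53634702) at 166 and 135 against 45.8 and 55.5 CPM. Il1rl1 (ENSMUSG00000026069, chr1:40429570-40465415) did not follow this order, since it was at 42.2 and 32.7 CPM in ILC2 and at 483 and 512 CPM in Tregs, where IL-33 receptor is known to mark a tissue subset.

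To compare shares across depths, each cell was thinned to 1000 UMIs, and cells gated as macrophages, which should lack these genes, served as background at a median depth of 18325 and 18702.5 UMIs. These cells also held Cd207, a gene of Langerhans cells, at 4035 and 2590 CPM, and the part of Langerhans cells in this background was not tested. In thinned ILC2, Gata3 was found in 50.2 and 55.4%, Rora in 96.1 and 97.0%, Hlf in 73.4 and 75%, Il5 in 21.2 and 17.9% and Il13 in 12.8 and 10.1% of cells. In thinned macrophages, Gata3 was found in 0.341 and 0.488%, Hlf in 0.341 and 0.488%, Il5 in 0 and 0% and Il13 in 0.341 and 0% of cells. Of genes that the rule did not use, Icos, a costimulatory receptor, was found in 83.7 and 84.5% of thinned ILC2 (96.6 and 95.8% unthinned) and in 1.37 and 0.976% of thinned macrophages (13.3 and 6.59% unthinned). Kit, the receptor for stem cell factor, was found in 21.2 and 26.8% of thinned ILC2 (59.1 and 73.2% unthinned) and in 0.341 and 0.488% of thinned macrophages (3.75 and 5.37% unthinned). Areg was found in 17.2 and 19.6% (39.9 and 48.2% unthinned) against 0.683 and 0.732% (10.6 and 10.7% unthinned). Il7r was found in 53.2 and 44.6% of thinned ILC2 but also in 38.6 and 29.5% of thinned macrophages, so that a UMI of Il7r alone did not set the types apart. Klrg1, a receptor often used to mark ILC2, was found in only 0.493 and 1.19% of thinned ILC2 (3.45 and 2.38% unthinned), and Il1rl1 in 4.93 and 2.98%. Of the markers outside the rule, Icos, Kit and Areg were thus well above background, while Klrg1, which marks ILC2 of other tissues, was nearly absent.

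At the edge of the rule, 68 control ILC2 had exactly 1 UMI of Gata3 and 104 other cells failed only because they had 0. Icos was found in 94.1 and 94.2% of the cells inside and outside, and Kit in 48.5 and 29.8%, at a median depth of 3842 and 3261.5 UMIs. Of cells with 1 UMI over the T cell receptor genes there were 91 inside, and 32 cells with 2 were outside. Only 19 members had a single UMI over Il5, Il13, Il1rl1 and Hlf, with Icos in 52.6% of them, and 124 cells failed because they had 0, with Icos in 51.6%. The 5 keratin cells, each with 1 UMI of Hlf, were among these 19, and Icos was found in 1 of the 5. Rora divided few cells, with 2 members at 3 UMIs and 4 cells outside at 2. Top2a and Mki67, genes of dividing cells, summed to 2 UMIs in 31 members and to 3 in 11 cells outside. Foxp3 kept out 7 cells with 1 UMI, Csf1r 1 cell with 2 UMIs, and Mcpt4 none with 4 UMIs. Cells further outside a limit were not counted here.

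Markers of other cells were summed over the control ILC2, as a check of what the sort could have brought in. The 9 genes of macrophages and dendritic cells were all present, at 2775 and 529 CPM in sum, with Cd74 the most abundant at 992 and 212 CPM. The same sum was 4030 and 2889 CPM in dermal γδT, 4616 and 4731 in DETC, 1262 and 3398 in αβT, 7832 and 1509 in Tregs, 385 and 563 in NK and 46952 and 39381 CPM in macrophages. For Langerhans cells, Cd207 and Epcam summed to 186 and 56.5 CPM, and 203 of the 251 Cd207 UMIs of control skin 1 came from 1 cell. The mast cell list summed to 255 and 305 CPM and was almost all Kit, with Ms4a2 at 0 in both libraries and Cpa3, Gata2 and Tpsb2 at 0 in control skin 1. Mcpt8, of basophils, was at 0, and B cell, neutrophil and fibroblast genes summed to at most 2.04, 3.41 and 12.3 CPM. The T cell list (Cd4, Cd5, Trbc1, Trbc2) summed to 481 and 397 CPM, of which Trbc1 made 346 and 280 CPM. The part of such transcripts in the comparisons was not tested.

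The first question was which genes set ILC2 of the control skins apart from the other lymphocytes of the same skins. The 5 comparison types were dermal γδT (151 and 134 cells), which make IL-17, DETC (509 and 577 cells), the γδ T cells of mouse epidermis, αβ T cells (αβT, 234 and 99 cells), Tregs (38 and 36 cells) and natural killer cells (NK, 36 and 23 cells). The T cell types needed at least 2 UMIs over Cd3e, Cd3g and Cd3d, counted with Trac for Tregs. Dermal γδT also needed Trdc and any of Cd163l1, 5830411N06Rik, Il17a and Il23r. DETC needed Trdc, Fcer1g and Nkg7 and none of those. αβT needed Trac and Tregs Foxp3, both without Trdc. NK needed at least 2 UMIs over Ncr1, Klra7, Klra8, Klrb1c and Eomes. They had at most 1 UMI over the CD3 genes and Trac and none of Il5, Il13, Il1rl1 and Hlf. UMIs were summed per library and type, and 10232 genes outside the rules were tested with edgeR's quasi-likelihood test with the library as a block, with Benjamini-Hochberg adjustment and a threshold of 0.05. Against dermal γδT, 993 genes were higher in ILC2 (9.7%) and 1263 lower (12.3%). Against DETC, 1784 were higher (17.4%) and 1907 lower (18.6%). Against αβT, 674 were higher (6.59%) and 555 lower (5.42%). Against Tregs, 660 were higher (6.45%) and 509 lower (4.97%), and against NK, 909 were higher (8.88%) and 699 lower (6.83%). In every one of the 5 contrasts, 190 genes were higher (1.86%) and 36 lower (0.352%). Without the 5 keratin cells, 198 of 10035 genes were higher in every contrast (1.97%) and 37 lower (0.369%), and 157 and 34 of these were among those called with them. For the single contrasts, in the same order, 9.93, 18.9, 6.67, 6.92 and 9.17% of genes were then higher and 13.8, 19.6, 6.35, 5.07 and 7.43% lower. The contrasts with Tregs and NK rest on few cells, and all 5 contrasts share the ILC2 of the same 2 libraries.

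Ranked by their smallest difference over the 5 contrasts, the leading 15 genes were Spink5, Krtdap, Krt1, Krt77, Krt10, Mt4, Abca12, Calm4, Ly6g6c, Dsg1a, Krt17, Sbsn, Eppk1, Krt79 and Homer2. Most of them are genes of the cornifying epidermis. Krtdap was at 69.1 and 1059 CPM with the 5 keratin cells and at 1.81 and 3.77 CPM without them, and Krt1 at 79.0 and 219 CPM with them and at 0 in both libraries without them. None of the 15 had enough counts to be tested once these cells were left out. The genes that lead without the 5 cells are therefore described here, an order set after their values were seen.

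Without the keratin cells, the leading 15 were Bmp2, Pde7b, Gnaz, Usp44, Cd70, Igsf5, Enpp2, Amph, Vipr2, Thsd4, Tmeff2, Tnc, Mcc, Il17rb and Tnfrsf11a. All but Cd70 were also called in every contrast with the keratin cells in place, where Cd70 missed the threshold in 1 contrast (adjusted p = 0.0504). Bmp2 (ENSMUSG00000027358, chr2:133552159-133562885), a secreted ligand of the bone morphogenetic protein family, was at 28.1 and 53.1 CPM in ILC2 and at most 3.79 CPM in any library of another type. Pde7b (ENSMUSG00000019990, chr10:20398004-20725078), a phosphodiesterase that breaks down cyclic AMP, was at 707 and 745 CPM in ILC2 and at most 97.6 CPM elsewhere. Its difference from dermal γδT was 4.32 ± 0.41 on the log2 scale (SE). Igsf5 (ENSMUSG00000000159, chr16:96361668-96422121), an adhesion molecule of the immunoglobulin superfamily, was at 299.8 and 309 CPM in ILC2 and at most 21.9 CPM elsewhere. Both libraries of ILC2 lay far above every library of the other types for these 3 genes. Tmeff2, a transmembrane protein with follistatin-like domains, was at 166 and 168 CPM in ILC2 and Tnfrsf11a, the receptor for RANK ligand, at 78.5 and 101 CPM, while no other library passed 20.9 and 11.3 CPM. Enpp2, which encodes the lysophospholipase D autotaxin, was less even, since 19 of its 41 UMIs in control skin 1 and 78 of 137 in control skin 2 came from 1 cell each.

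**Figure D2:**
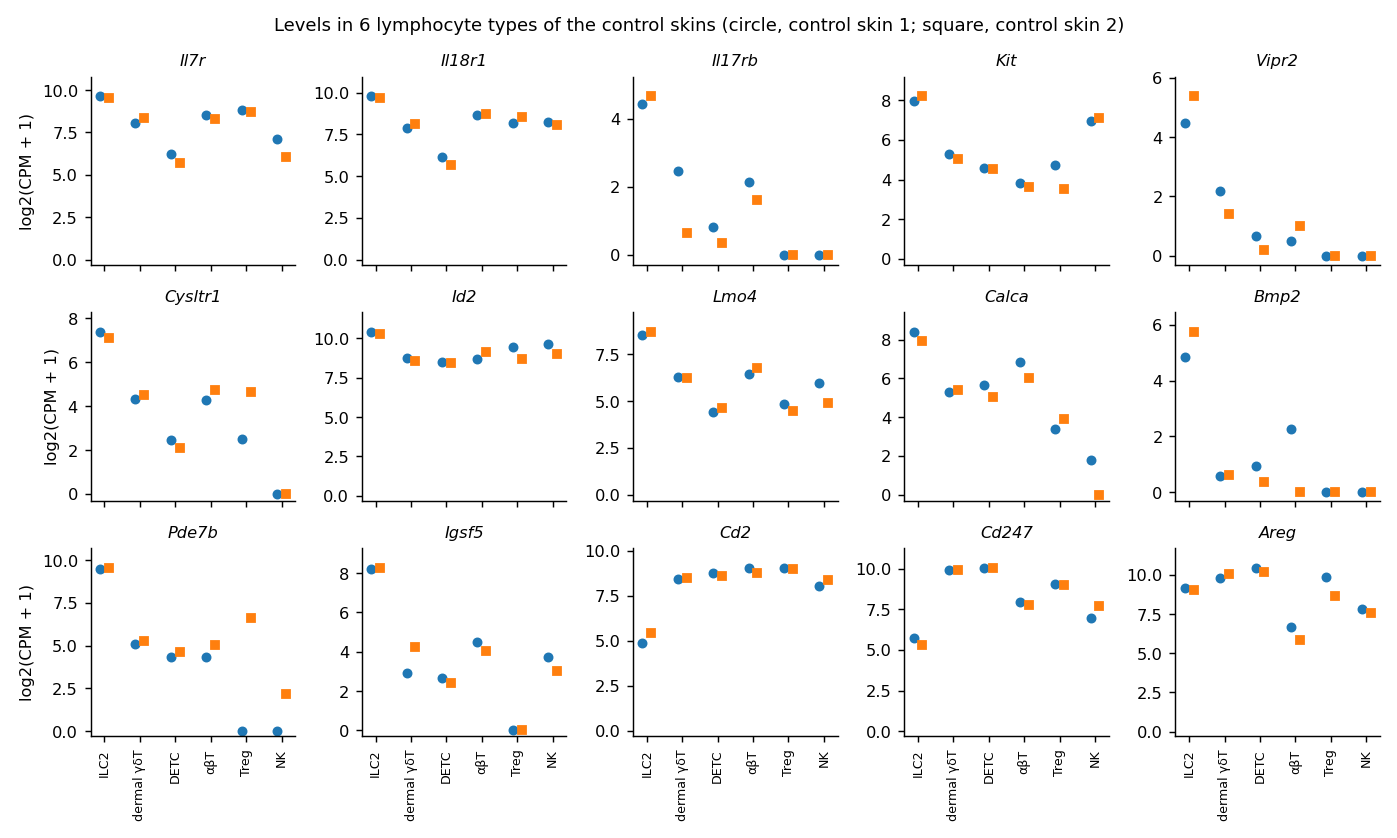
Levels of 15 genes, as log2(CPM + 1), in the summed cells of 6 lymphocyte types of control skin 1 (circles) and control skin 2 (squares). Il7r to Igsf5 are highest in ILC2, Cd2 and Cd247 are lowest there, and Areg is higher in dermal γδT and DETC.

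Of receptors for alarmins and other cytokines, all 20 listed genes were tested. Higher in ILC2 were 8 against dermal γδT, 12 against DETC, 8 against αβT, 6 against Tregs and 7 against NK, and 3, 3, 2, 3 and 3 were lower. The median log2 differences of the list were 0.53, 1.27, 0.27, 0.29 and 0.86, beside 0.05, 0.04, 0.02, 0.04 and 0.09 over all genes tested. Without the keratin cells the counts were 11, 12, 9, 7 and 7 higher and 3, 2, 2, 3 and 3 lower. Il7r, Il18r1 and Il17rb were higher in every contrast, and so was Il9r without the keratin cells (largest adjusted p = 0.0326, and 0.0503 with them).

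Il7r (ENSMUSG00000003882, chr15:9505788-9530176), the receptor for IL-7, on which ILC2 depend, was at 795 and 753 CPM in ILC2. It was at 263 and 323 CPM in dermal γδT, 73.4 and 50.9 in DETC, 368 and 312 in αβT, 457 and 411 in Tregs and 136 and 64.1 in NK. Both ILC2 libraries were above all the others, and the smallest difference was 0.96 ± 0.21 on the log2 scale against Tregs (largest adjusted p = 0.0117). Il18r1 (ENSMUSG00000026070, chr1:40465552-40500854), a chain of the IL-18 receptor, was at 882 and 814 CPM in ILC2 and next at 407 and 413 CPM in αβT, a difference of 1.07 ± 0.17 (largest adjusted p = 0.00119). Its partner Il18rap was at 845 and 880.1 CPM in ILC2 and at 708 and 552 CPM in NK, a difference of 0.52 ± 0.20 that missed the threshold (adjusted p = 0.112), and it was higher in ILC2 than in the 4 types of T cells. Il17rb (ENSMUSG00000015966, chr14:29996135-30008896), the receptor subunit for IL-25, was found in only 14.3 and 19.0% of ILC2, at 20.5 and 24.5 CPM, against 4.48 and 0.550 CPM in dermal γδT (3.16 ± 0.68). No UMI of Il17rb was counted in Tregs or NK, and against a floor of 3 counts over the type ILC2 were at least 5.30-fold and 5.11-fold higher.

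Il9r, the receptor for IL-9, was at 58.6 and 49.7 CPM in ILC2, 24.0 and 13.3 in αβT and 21.2 and 20.9 in Tregs. Crlf2, the receptor subunit for TSLP, was at 39.2 and 33.4 CPM in ILC2 and passed the threshold in no contrast, with -0.26 ± 0.27 against dermal γδT. Il1r1, the receptor for IL-1, went the other way, at 11.7 and 11.6 CPM in ILC2 and 89.2 and 126 CPM in dermal γδT (-3.23 ± 0.45, adjusted p = 3.27e-04). Il2ra, the high-affinity chain of the IL-2 receptor, was at 310.3 and 245 CPM in ILC2, below the 1158 and 1080.3 CPM of Tregs (-1.88 ± 0.31, adjusted p = 0.00207). Icos was at 2699 and 2486 CPM in ILC2, 1851 and 1914 in αβT and 2213 and 2561 in Tregs, and its differences from these types, 0.47 ± 0.30 and 0.24 ± 0.30, did not pass the threshold.

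Among surface molecules and receptors for neuropeptides and lipid mediators, 18 of 20 listed genes were tested. Of these, 10, 15, 7, 6 and 11 were higher in ILC2 than in dermal γδT, DETC, αβT, Tregs and NK, and 1, 1, 2, 4 and 1 were lower. The medians were 1.27, 2.08, 0.76, 0.27 and 2.10 on the log2 scale. Leaving out the keratin cells gave 10, 15, 7, 7 and 12 higher and 1, 1, 2, 4 and 1 lower. Kit, Cysltr1, Vipr2 and Ramp1 were higher in every contrast.

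Kit (ENSMUSG00000005672, chr5:75574916-75656722) was at 254 and 296 CPM in ILC2 and next at 123 and 139 CPM in NK, a difference of 1.15 ± 0.20 (largest adjusted p = 0.00221). In the T cell types it was at most 37.9 CPM. Cysltr1 (ENSMUSG00000052821, chrX:106574346-106603679), a receptor for cysteinyl leukotrienes, was at 166 and 136 CPM in ILC2, 18.9 and 22.0 in dermal γδT and 18.5 and 25.6 in αβT (2.84 ± 0.30 and 2.84 ± 0.31). It had no UMI in NK, where ILC2 were at least 34.8-fold higher. Vipr2 (ENSMUSG00000011171, chr12:116077726-116146261), whose promoter is printed above, was at 21.1 and 40.9 CPM in ILC2, in 11.8 and 14.3% of cells. It was at 3.49 and 1.65 CPM in dermal γδT (3.45 ± 0.64, adjusted p = 0.00300) and had no UMI in Tregs or NK (at least 7.17-fold and 6.91-fold higher in ILC2). Ramp1, a subunit of the receptor for calcitonin gene-related peptide, was at 84.9 and 108 CPM in ILC2 and 28.5 and 19.4 CPM in DETC, and its smallest difference was 0.94 ± 0.26 against dermal γδT (adjusted p = 0.0197).

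Some familiar names of this list were lower in ILC2 than in another type, or had too few counts for a test. Klrg1 was at 6.44 and 3.41 CPM in ILC2 and 177 and 122 CPM in Tregs (-4.79 ± 0.62, adjusted p = 3.71e-04). Nmur1, the receptor for neuromedin U, and Ptgdr2, a receptor for prostaglandin D2, had too few counts for a test, at 0.586 and 0.681 CPM and 3.51 and 0 CPM in ILC2. Thy1 was at 122 and 121 CPM in ILC2 and 335 and 356 CPM in DETC (-1.61 ± 0.14), and it was lower in ILC2 than in every type but Tregs. Ctla4, an inhibitory receptor, was at 175 and 158 CPM in ILC2, above dermal γδT, DETC and NK and below the 2291 and 3464 CPM of Tregs (-3.98 ± 0.24).

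Of 25 tested transcription factors of innate lymphoid cells, 13, 14, 7, 12 and 11 were higher in ILC2 than in the 5 types, in the same order, and 4, 4, 3, 2 and 4 were lower. The medians ran from 0.27 against αβT to 1.37 against DETC. With the keratin cells left out, 14, 17, 7, 12 and 11 were higher and 5, 4, 3, 2 and 4 lower. Id2, Ikzf3, Lmo4, Nfkb1 and Runx1 were higher in every contrast. Id2 (ENSMUSG00000020644, chr12:25093799-25097140), the inhibitor of E proteins that all innate lymphoid cells require, was at 1346 and 1213 CPM in ILC2 and next at 809 and 502 CPM in NK (1.04 ± 0.23, largest adjusted p = 0.00868). Lmo4 (ENSMUSG00000028266, chr3:144188530-144205220), a LIM-only cofactor, was at 372 and 410.1 CPM in ILC2 and next at 86.3 and 108 CPM in αβT (2.05 ± 0.19, largest adjusted p = 3.26e-05). Ikzf3, which encodes Aiolos, was at 2154 and 2048 CPM in ILC2 and 800.4 and 875 CPM in Tregs (1.45 ± 0.36). Bcl11b, known in ILC2 and in T cells, was at 544 and 584 CPM in ILC2, above NK at 7.40 and 28.5 CPM (5.19 ± 0.30) and not called against αβT at 422 and 431 CPM (0.42 ± 0.17). Ahr, the aryl hydrocarbon receptor, was lower in ILC2, at 53.9 and 44.3 CPM against 279 and 180.4 in dermal γδT and 309 and 283 in DETC (-2.26 ± 0.18 and -2.70 ± 0.17).

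Of 19 tested effector and signalling molecules, 7, 10, 5, 7 and 6 were higher and 5, 4, 6, 2 and 4 were lower in ILC2, with medians of -0.26 against αβT, 0.55 against dermal γδT and 1.39 against Tregs. Of 18 such genes tested without the keratin cells, 8, 9, 6, 7 and 6 were higher and 5, 4, 6, 1 and 4 lower. Calca, Furin, Pxdc1 and Ptpn13 were higher in every contrast. Calca (ENSMUSG00000030669, chr7:114631478-114636357), the gene of calcitonin and calcitonin gene-related peptide, was at 337 and 240.5 CPM in ILC2, in 36.0 and 35.1% of cells. It was next at 113 and 63.6 CPM in αβT, a difference of 1.71 ± 0.20 (largest adjusted p = 1.82e-04). Furin, a protease that cuts precursors of secreted proteins, was at 1037 and 1133 CPM in ILC2 and 411 and 415 CPM in dermal γδT (1.34 ± 0.17).

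Areg (ENSMUSG00000029378, chr5:91139599-91148432), the gene of amphiregulin, was at 569.7 and 513 CPM in ILC2. It was at 885 and 1079 CPM in dermal γδT and 1393 and 1160.4 in DETC, so ILC2 were below both types of γδ T cells (-0.94 ± 0.25 and -1.33 ± 0.25, adjusted p = 0.0182 and 0.00123). Tregs held 928 and 408 CPM, with no call, and αβT and NK held 99.8 and 56.4 CPM and 222 and 185 CPM, below ILC2 (2.80 ± 0.29 against αβT, with adjusted p = 6.78e-05 and 0.00461). Il4 was at 11.7 and 9.54 CPM in ILC2 and 24.4 and 24.6 CPM in αβT, and Il9 had no UMI in any of these types. Ifng and Xcl1, products of cytotoxic and type 1 cells, were lower in ILC2 than in NK (-3.34 ± 0.71 and -3.84 ± 0.43).

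Of 24 tested genes of tissue residency and homing, 9, 13, 5, 8 and 9 were higher and 4, 4, 5, 5 and 7 lower in ILC2 than in the 5 types. The counts without the keratin cells were 11, 15, 5, 9 and 9 higher and 4, 4, 5, 5 and 7 lower. The medians ran from -0.26 against αβT to 1.06 against DETC. Ccr6 and Cd44 were higher in every contrast. Ccr6 (ENSMUSG00000040899, chr17:8236043-8257141), the receptor for CCL20, was at 208 and 219 CPM in ILC2 and next at 77.7 and 80.2 CPM in Tregs (1.56 ± 0.34, adjusted p = 0.0116). Cxcr6, a receptor of resident lymphocytes, was at 1349.6 and 1142 CPM in ILC2 and was higher than in every type but αβT (0.45 ± 0.20, adjusted p = 0.191). S1pr1 and Klf2, which serve exit from tissue, were lower in ILC2 than in αβT (-2.23 ± 0.52 and -2.08 ± 0.29) and than in Tregs (-2.77 ± 0.57 and -2.02 ± 0.35). Dgat1, an enzyme of triglyceride synthesis known in ILC2, was the only one of 18 tested genes of lipid, arginine and energy metabolism (of 17 without the keratin cells) that was higher in every contrast, at 1589 and 1539 CPM in ILC2 and next at 611 and 763 CPM in dermal γδT (1.13 ± 0.15).

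**Figure D3:**
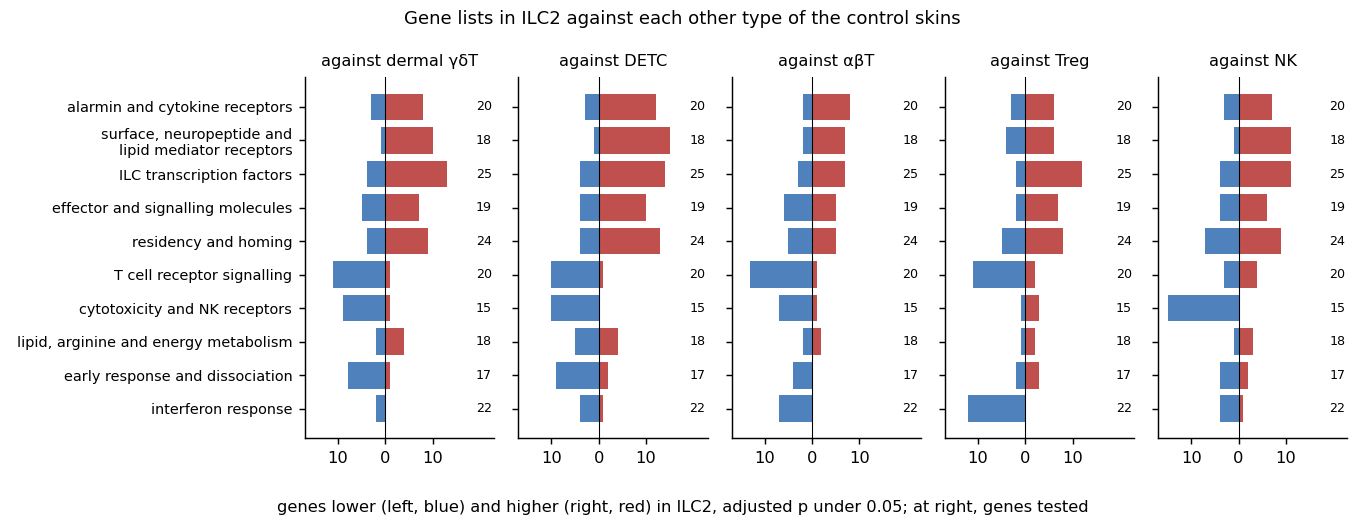
Number of genes of 10 lists that were higher (bars to the right, red) or lower (bars to the left, blue) in ILC2 than in each of 5 other lymphocyte types of the control skins at an adjusted p under 0.05, with the number tested at the right of each bar. Receptors and transcription factors lie mostly to the right, T cell receptor signalling mostly to the left except against NK, and cytotoxicity mostly to the left except against Tregs.

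On the other side, of 20 genes of T cell receptor signalling that the rule did not use, 11, 10, 13 and 11 were lower in ILC2 than in dermal γδT, DETC, αβT and Tregs, and 1, 1, 1 and 2 were higher. The medians against the 4 types of T cells ran from -2.39 to -1.23. Against NK the list did not lie to 1 side, with 4 genes higher, 3 lower and a median of 1.00. Without the keratin cells 11, 10, 13, 11 and 3 were lower than in the 5 types and 1, 1, 1, 3 and 5 higher. The rule kept out cells with CD3 or Trac, and the T cell types were chosen for CD3, so this direction is not independent of the choice of cells. Cd247, Cd2 and Lck were lower in every contrast. Cd2 (ENSMUSG00000027863, chr3:101275899-101287939), an adhesion receptor of T and NK cells, was at 28.7 and 41.6 CPM in ILC2 and at least 256 CPM in every other library (-2.99 ± 0.22 against NK, largest adjusted p = 5.47e-06). Cd247 (ENSMUSG00000005763, chr1:165788681-165877277), the CD3 zeta chain, was at 51.5 and 38.8 CPM in ILC2 and 123 and 207 CPM in NK (-1.74 ± 0.23). Trbc1, a constant region of the T cell receptor β chain, did not behave so. It was at 346 and 280.0 CPM in ILC2, in 74.9 and 67.9% of cells, and at 386 and 292 CPM in dermal γδT, 428 and 294 in αβT and 456 and 406 in NK, and passed the threshold in none of the 5 contrasts. Trbc2, its near copy, was at 114 and 101 CPM in ILC2 and 492 and 552 in αβT (-2.26 ± 0.14), and how reads were split between these 2 genes is uncertain.

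Of the 10 genes with the clearest deficit in ILC2, Ptpn5, a tyrosine phosphatase, led. It was at 1.17 and 0.681 CPM in ILC2 and at least 8.85 CPM in every other library. Slc14a1, Cd2, Zdhhc15, Fmnl2, Ipcef1, Ccl4, Cd247, Lrmp and Airn followed. Ptpn5 had 2 and 1 UMIs in ILC2 and Slc14a1 had 1 and 2, so few that their place in this order is uncertain. Ccl4, a chemokine of activated lymphocytes, was at 7.61 and 21.8 CPM in ILC2, 259.9 and 258 in αβT and 449 and 192 in NK. Airn overlaps Igf2r on the other strand, and whether the counting used strand is not given in the sources used here. Of 15 tested genes of cytotoxicity and NK receptors, all 15 were lower in ILC2 than in NK (median -4.08). NK were chosen by other genes of NK cells and DETC by Fcer1g and Nkg7, so the direction against these types is not independent of the choice of cells. Against dermal γδT, DETC and αβT, 9, 10 and 7 were lower and 1, 0 and 1 higher. Against Tregs the direction turned, with 3 higher, 1 lower and a median of 0.34. Leaving out the keratin cells changed 1 of these counts, to 9 lower than in αβT. Of the 22 tested interferon response genes, 2, 4, 7, 12 and 4 were lower in ILC2 than in dermal γδT, DETC, αβT, Tregs and NK, and 0, 1, 0, 0 and 1 were higher. Without the keratin cells 2 were higher than in DETC, and the other counts were equal. The counts against dermal γδT and DETC lie below or near the 12.3 and 18.6% of all genes that were lower. The contrast with Tregs, which rests on 38 and 36 Tregs, had the most lower genes, with Gbp7, a guanylate-binding protein, at 11.1 and 8.86 CPM in ILC2 and 91.8 and 115 CPM in Tregs (-3.21 ± 0.39). Of 17 early response genes, which dissociation can induce, 8, 9, 4, 2 and 4 were lower in ILC2 than in the 5 types, in the same order, and 1, 2, 0, 3 and 2 were higher, with medians from -0.75 against DETC to 0.42 against Tregs. Without the keratin cells 11, 11, 5, 2 and 6 were lower and 1, 2, 0, 2 and 0 higher, the medians were -1.07, -1.28, -0.37, 0.09 and -0.36, and Fos fell from 179 and 326 CPM to 144 and 172 CPM.

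The second question was how the control ILC2 vary among themselves, and first by their cytokines. Il5, Il13 and Areg tended to be found in the same cells, which is given as a description, since the rule used Il5 and Il13. Il13 was found in 58.6 and 42.5% of ILC2 with Il5 and in 28.4 and 23.9% of those without. In cells thinned to 3000 UMIs the values were 48.2 and 29.8% with Il5 and 20.8 and 20.4% without. Areg was found in 56.0 and 72.7% of ILC2 with Il13 and in 28.6 and 36.3% without, and in thinned cells in 39.6 and 45.5% and in 23.4 and 33.6%. Each cytokine was thus found more often beside the other in both libraries and at both depths, and in both libraries the gaps were smaller in thinned cells than at full depth.

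ILC2 with at least 1 UMI of Il5 or Il13, called cytokine-positive here, were 120 and 101 of the 203 and 168 cells. They were also deeper, at a median of 9801 and 9792 UMIs against 4812 and 5270 in cytokine-negative cells, so a cell without a UMI may still express the cytokine. In sums per library and state, 56 of 6980 genes were higher in cytokine-positive cells (0.802%) and 244 lower (3.5%) by edgeR's quasi-likelihood test with the library as a block. All 5 keratin cells were cytokine-negative, and Krt1, Krt77, Dapl1, Spink5 and Mt4 led the lower genes. Without these cells, 99 of 6671 genes were higher (1.48%) and 66 lower (0.989%). After thinning to 3000 UMIs, with shallower cells left out, 237 of 3840 genes were higher (6.17%) and 57 lower (1.48%). The values below are without the keratin cells, unless stated.

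Areg moved with the type 2 cytokines. It was at 762 and 744 CPM in cytokine-positive and 178 and 171 CPM in cytokine-negative ILC2, a difference of 2.20 ± 0.20 on the log2 scale (adjusted p = 2.68e-05), of 2.38 ± 0.31 with the keratin cells and of 2.07 ± 0.27 in thinned cells. Areg was found in 59 of 120 and 63 of 101 cytokine-positive and in 21 of 81 and 16 of 64 cytokine-negative cells. Lmo4, higher in ILC2 than in all other types above, was at 449.7 and 541 CPM against 229.7 and 227 CPM (1.21 ± 0.20, adjusted p = 0.00577). Ccr7, a receptor that guides cells to lymph nodes, was at 179 and 170.1 against 81.2 and 43.5 CPM (1.58 ± 0.26, adjusted p = 0.00525). In each of these 3 genes both libraries of cytokine-positive cells lay above both of cytokine-negative cells.

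With the keratin cells in place, the 5 leading genes were Cxcl10, Gzmc, Ly6g5b, Cd70 and Csf2, and how many cells carried them differed. Ly6g5b, of the Ly6 family, was found in 20.8 and 23.8% of cytokine-positive against 4.94 and 3.13% of cytokine-negative cells (2.44 ± 0.52, adjusted p = 0.0224). Cd70, the ligand of CD27, was found in 8.33 and 15.8% against 3.70 and 3.13% (2.36 ± 0.60, adjusted p = 0.0497, and 2.62 ± 0.63 with an adjusted p of 0.0202 with the keratin cells). By contrast, 89 of 101 Cxcl10 UMIs in control skin 1 and 11 of 17 in control skin 2 came from 1 cell each, and 319 of 517 Gzmc UMIs in control skin 1 from 1 cell. Csf2, the gene of the cytokine GM-CSF, had 26 of 35 and 13 of 34 UMIs in 1 cell. Egfr and Cd207 were also among the leading 5 without the keratin cells. Egfr was found in 1 cytokine-positive cell of each library. Cd207 was found in 28 of 120 and 18 of 101 cytokine-positive and in 9 of 81 and 6 of 64 cytokine-negative cells. In control skin 1, 203 of its 231 UMIs in cytokine-positive cells came from 1 cell. In control skin 2 no cell held more than 2 of its 20. Among the leading lower genes, 251 of 253 Retnla UMIs and 24 of 24 Frmd5 UMIs in control skin 1 came from 1 cell each. Fstl4, Blk and Klre1 completed the 5.

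The lists were also compared between the cytokine states, where a gene that missed the threshold is not shown to be equal. Of the 20 receptors, 1 (Tnfrsf18) was higher in cytokine-positive cells and 0 lower. Kit (0.33 ± 0.20), Il7r (0.38 ± 0.20), Vipr2 (-0.84 ± 0.39) and Dgat1 (0.03 ± 0.18) did not pass the threshold, with adjusted p of 0.442, 0.333, 0.283 and 0.959. Of 16 tested surface genes, Ly6a and Cysltr1 were higher, and of 15 effector genes Csf2, Areg, Ltb and Pxdc1 were higher and Ifng and Ccl5 lower. Of 23 transcription factors, Id2 and Lmo4 were higher and Zbtb16, Pparg, Tbx21 and Lef1 lower. Of 12 cytotoxicity genes, Gzmc was higher, through control skin 1 alone, since control skin 2 held 1 UMI of it in cytokine-positive and 5 in cytokine-negative cells. In the same list Klre1, Klrd1, Klrc1, Klrc2 and Tyrobp were lower, with reads of the near copies Klrc1 and Klrc2 uncertain. Of 15 genes of T cell receptor signalling, Cd2, Cd5, Cd6 and Lck were lower and none higher. The medians were 0.19 for receptors, 0.44 for effectors, -0.30 for T cell receptor signalling and -1.17 for cytotoxicity, beside -0.02 over all genes tested. Cytokine-positive cells were deeper, and in cells thinned to 3000 UMIs 0 of 13 receptors and 0 of 13 surface genes still tested were called higher. At that depth, where 6.17% of all genes were higher and 1.48% lower, 3 of 10 effector genes were higher and 0 lower, 2 of 20 transcription factors were higher and 3 lower, 1 of 13 genes of T cell receptor signalling was higher and 3 lower, and 0 of 4 cytotoxicity genes were higher and 1 lower. Genes of γδ T cells were few and differed among themselves. Il23r or Blk was found in 2.50 and 2.97% (3 and 3 cells) of cytokine-positive and in 6.17 and 6.25% (5 and 4 cells) of cytokine-negative cells, lower in both libraries, with no test. Trdc was found in 11.7 and 14.9% and in 18.5 and 14.1%. Tcrg-C1 was found in 2.50 and 8.91% and in 0 and 4.69%, and Il17a in 5.00 and 6.93% and in 4.94 and 6.25%. Cd5, a gene of T cells, was found in 1.67 and 0.990% (2 and 1 cells) and in 8.64 and 6.25% (7 and 4 cells). The part of such cells in these calls was not tested.

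**Figure D4:**
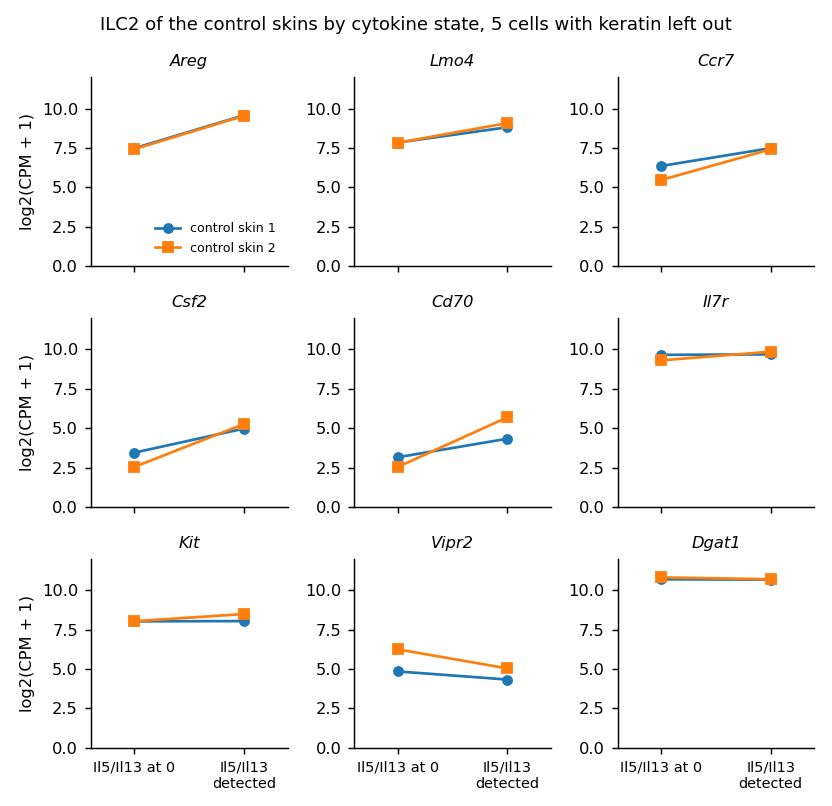
Levels of 9 genes, as log2(CPM + 1), in the summed control ILC2 without a UMI of Il5 and Il13 (left of each panel) and with at least 1 (right), without the 5 keratin cells, joined within control skin 1 (circles) and control skin 2 (squares). Areg, Lmo4, Ccr7, Csf2 and Cd70 are higher on the right in both libraries, and Il7r, Kit, Vipr2 and Dgat1 did not pass the test.

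The third question was how ILC2 of the skin tumors compare with those of the control skins. ILC2 made up 6.52% of the kept cells in control skin 1 (95% Clopper-Pearson interval 5.68 to 7.44%) and 5.27% in control skin 2 (4.52 to 6.10%). In skin tumor 1 they were 8 of 4813 cells, or 0.166% (0.0718 to 0.327%), and in skin tumor 2 they were 9 of 2007, or 0.448% (0.205 to 0.850%). Both tumors lay below both control skins. The difference on the log2 scale was -4.44 ± 0.51 (edgeR's quasi-likelihood test on cell numbers, adjusted p = 0.00135 over 8 groups of cells), while an exact permutation test of 2 against 2 libraries cannot go below 0.333. The log2 difference was -3.70 without skin tumor 1 and -5.12 without skin tumor 2. Of the gated lymphocytes alone, ILC2 were 17.3 and 16.2% in the control skins, against 1.38 and 2.89% in the tumors (-3.08 ± 0.44). Dermal γδT and DETC differed in the same direction (-5.02 ± 0.41 and -4.90 ± 0.54), and Tregs, NK and macrophages in the other (1.23 ± 0.34, 1.47 ± 0.36 and 1.48 ± 0.29). With the replicate number as a block these 3 missed the threshold (adjusted p = 0.0981, 0.0981 and 0.0845). Tregs also missed it in cells thinned to 5000 UMIs (adjusted p = 0.0592) and without control skin 1, control skin 2 or skin tumor 2 (adjusted p = 0.0649, 0.103 and 0.130), NK without control skin 2 (0.103) and macrophages without control skin 1 (0.0555). A share is relative to the other cells, so fewer ILC2 and more of other cells cannot be told apart, and the intervals cover counting error only. The rule asks for UMIs, and tumor cells were gated at their own depth. After thinning to 5000 UMIs before the rule, which left out 710, 697, 984 and 419 shallower cells, ILC2 were 6.78, 4.49, 0.0783 and 0.252% of cells (-5.32 ± 0.60). The tumor values then rest on 3 and 4 cells. Of the tumor ILC2 gated at full depth 3 and 3 held at least 5000 UMIs, so in skin tumor 2 at least 1 of the 4 was not an ILC2 by the rule before thinning. Without the need for Il5, Il13, Il1rl1 or Hlf, the rule took 275 and 220 control cells but 41 and 34 tumor cells, a difference of -2.97 ± 0.57 (adjusted p = 0.0131).

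**Figure D5:**
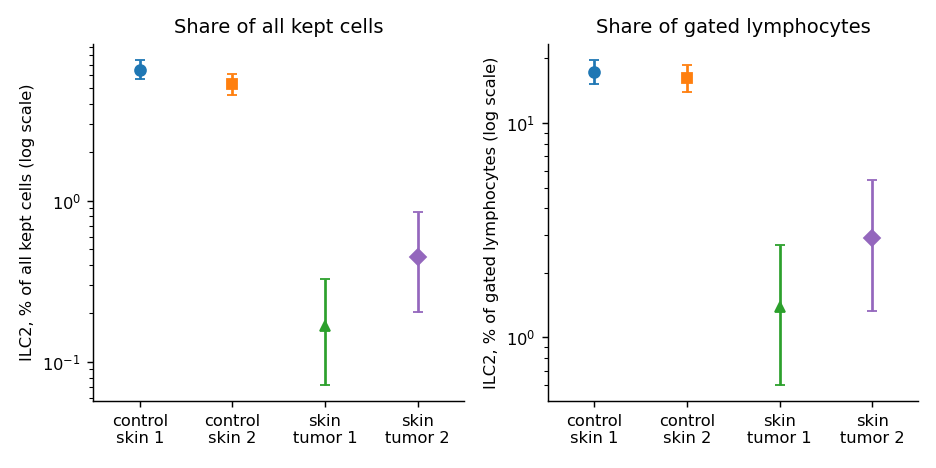
Share of ILC2 among all kept cells (left) and among gated lymphocytes (right) in each library, in percent on log scales, with 95% Clopper-Pearson intervals. Both skin tumors lie below both control skins in both panels.

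With 8 and 9 cells, and 34751 and 43573 UMIs in sum, the tumor ILC2 were below the minimum of 10 cells a library that was set for a fit, so their expression was not tested, and values are given with Poisson intervals that cover counting error only. In this paragraph pairs are skin tumor 1 and skin tumor 2. Of the genes of the rule, Gata3 was at 835 (559 to 1198) and 1813 (1435 to 2259.6) CPM, Rora at 2993 (2445 to 3626) and 4613 (3997 to 5297) CPM and Hlf, found in 5 of 8 and 5 of 9 cells, at 835 (559 to 1198) and 849 (598 to 1170.4) CPM. Il5 was found in 1 of 8 and 2 of 9 cells and Il13 in 1 of each. Il1rl1 was found in 3 of 8 and 6 of 9 cells, at 288 (138 to 529) and 757 (521 to 1064) CPM, beside 42.2 and 32.7 CPM in the control ILC2. Of these tumor cells, 3 and 4 passed the rule through Il1rl1 alone, so the rule itself sets part of this level. Icos was found in 5 of 8 and 7 of 9 cells, at 777 (512 to 1130) and 1010 (734 to 1356) CPM. Il7r was found in 4 of 8 and 5 of 9, at 374 (199 to 640) and 482 (298 to 737) CPM. Id2 was at 777 (512 to 1130) and 413 (245 to 653) CPM and Cxcr6 at 489 (285 to 783) and 436 (263 to 681) CPM. Areg was at 57.6 (6.97 to 208) and 138 (50.5 to 300) CPM. Each interval of these genes lay below both control levels given above. Il18r1 was found in 5 of 8 and 6 of 9, at 719 (466 to 1062) and 918 (656 to 1250.1) CPM. Il2ra was at 403 (220.3 to 676) and 1423 (1091 to 1824) CPM and Dgat1 at 1669 (1267 to 2158) and 1767 (1395 to 2209) CPM. The intervals of Il18r1 and Dgat1 held both control levels, and that of Il2ra lay above them in skin tumor 2. Kit was found in 2 of 8 and 2 of 9 cells. No UMI of Vipr2, Il17rb or Il9r was found, which by the floor of 3 counts allows up to 86.3 and 68.9 CPM, above the levels of Vipr2, Il17rb and Il9r in control ILC2. Some tumor cells of the rule carried genes of T cells or of NK cells. Ctla4 was found in 3 of 8 and 7 of 9 cells, Cd4 in 0 of 8 and 4 of 9, Pdcd1 in 0 of 8 and 4 of 9 and Cd5 in 1 of 8 and 3 of 9, while Cd4 was found in 1.97 and 2.38% of the control ILC2. Trbc1 went the other way, in 2 of 8 and 2 of 9 cells, beside 152 of 201 and 113 of 165 control ILC2 without keratin. The T cell list (Cd4, Cd5, Trbc1, Trbc2) summed to 201 and 413 CPM, beside 481 and 397 CPM in the control ILC2. Klrk1, an activating receptor of NK cells, was found in 4 of 8 and 0 of 9 cells, beside 37.9 and 35.1% of the control ILC2. In skin tumor 1, Klrc1, Klrc2 (a near copy) and Klre1, other receptors of NK cells, were each found in 2 cells, with 12, 12 and 10 UMIs, and Eomes, a transcription factor of NK cells, in 1 with 4 UMIs. Other genes of NK cells and cytotoxicity were at or near 0 there, with Gzma, Klra7, Klra8, Klrb1c, Klrb1f and Cd160 at 0 and Ncr1, Nkg7, Gzmb, Prf1 and Ctsw at 1 UMI each. Of the genes of macrophages and dendritic cells, 7 of 9 were present in each tumor, at 1784 and 918 CPM in sum, with Cd74 in 6 of 8 and 4 of 9, Lyz2 in 4 of 8 and 6 of 9 and C1qa in 3 of 8 and 3 of 9 cells. Fcer1g, a signalling adaptor of NK and myeloid cells, was found in 6 of 8 and 1 of 9 cells, beside 15.3 and 13.1% of the control ILC2. The part of these cells and transcripts in the tumor values was not tested.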

How the data were processed

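The authors deposited 1 matrix of UMI counts per library, for 31053 genes, with no normalization. Cell Ranger 7.1.0 and genome build mm10 are named in the submitters' processing notes, while the matrix headers name 7.0.1. Whether intronic reads were counted is not given in the sources used here. The cell filters, gates and sums per library were computed from these counts. No sample columns were left unused (0). The members and gene lists were chosen with earlier results of these data known, including the markers that define the gate.

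UMI counts were summed per library and type, and 27 gate genes were left out of tests. The quasi-likelihood test of edgeR 4.0.16 was run in R 4.3.3 after filterByExpr and TMM scaling, with limma 3.58.1 beside it, with DESeq2 1.42.0 as an alternative, and with Python 3.11.15, numpy 2.4.6, pandas 2.3.3 and scipy 1.17.1. P-values were adjusted by the Benjamini-Hochberg method over all genes tested, with a threshold of 0.05. The SE of a log2 difference is its size over the square root of F. The library was a block in the comparisons within control skins, since every type comes from the same skin. A type needed 10 cells in each library for a fit. Doublets were kept in the values reported, and leaving out the 1% per 1000 cells with the highest simulated-doublet scores was an alternative. Thinning, stricter gates, a minimum depth of 5000 UMIs and leaving out libraries or keratin cells were others, the last chosen after seeing the data.

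Named genes were those of the lists, the 15 higher and 10 lower in every contrast ranked by their smallest absolute log2 difference, and the 5 leading genes in each direction between cytokine states. The ranking left out gate genes, sex-linked genes, those of ribosomes and mitochondria, and variable genes of antibodies and T cell receptors. The fits were tested on simulated data. Of genes changed by 1 on the log2 scale, 29.6, 32.1, 26.0, 14.3 and 12.2% were recovered against dermal γδT, DETC, αβT, Tregs and NK. Between cytokine states 0% were. At a change of 2, the values were 75.4, 84.6, 75.9, 57.9 and 57.9%, and 89.6% between cytokine states. A smaller difference that missed the threshold is therefore not shown to be absent. Promoters are from RefSeq (GRCm38.p6), and gene positions are on GRCm38. Some listed genes and the genotype of the tumor line are not reported here.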

Additional observations from a re-analysis of the deposited data

How the results depend on the processing

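Of the counts of genes and the share of ILC2, 93 values under alternatives stayed on the same side or within 1.5 times, and 14 counts did not. Without the low count filter, 1019 genes were higher in ILC2 than in Tregs, 299 were higher and 55 lower than in all 5 types, and 137 were higher and 471 lower in cytokine-positive cells. Between cytokine states, DESeq2 called 19 higher and 87 lower, and the fit with no replicate block called 28 higher. Thinned cells gave 117 higher and 30 lower, cells without keratin 99 and 66, and both together 237 and 57. The share of ILC2 in skin tumors differed by -4.42 on the log2 scale with the replicate number as a block (replicate block), by -5.12 to -3.70 with 1 library left out and by -5.32 in cells thinned to 5000 UMIs, all with the call kept. In single genes, Gzmc reversed to -1.55 without control skin replicate 1 (4.07 without replicate 2) and Egfr to 6.82 with the keratin cells left out, where its 21 and 17 UMIs in cytokine-positive cells came from 1 cell each. Of the other gene values, 1767 were the same, 73 lost the threshold and 4 gained it. With 1 library left out there was no test, so a value there was the same unless a called difference reversed. Genes with too few counts in a setting were not counted. The epidermal genes that led with the keratin cells are thus not counted as lost once these cells were left out. Alternatives for expression in tumor against control ILC2 were not run, since 8 and 9 cells were below the minimum of 10 a library set for a fit. Depth limits the tumor ILC2 and the cytokine-negative cells most, and the contrasts with Tregs and NK rest on 23 to 38 cells a library.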
